A study of Homo sapiens with 9 samples.

Results

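The G2/M and mitosis genes described here are 33 genes that drive entry into mitosis, build and check the spindle, and take the cell through division. They were chosen by name, and every probe whose gene was a member was followed over all 9 arrays. Probes for 31 of the 33 genes were identified and tested, 41 probes of the 28259 tested in all, and the brightest tested probe stood for its gene. The probe for TTK, a spindle checkpoint kinase, was annotated with several genes and was not used, and no probe carried the name PRC1, a gene for a microtubule-bundling protein of cytokinesis, so neither gene was analysed here.

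Messenger RNA was compared in SKbr3, a human breast cancer cell line that carries extra copies of HER2, between cells given an siRNA against TRMT12 and cells given control siRNA. TRMT12, now named TYW2, encodes an enzyme needed to build wybutosine, the bulky modified base next to the anticodon of phenylalanine tRNA. The series holds 3 TRMT12 siRNAs with 3 two-colour arrays each, and asks which transcripts change when TRMT12 is depleted. On arrays 1 and 2 of each siRNA the knockdown RNA carried Cy5, and on array 3 the dyes were exchanged. Every group is therefore the same cell line with the same target. By the labels, the groups differ in the number of the TRMT12 siRNA and in that of its control. Neither the dose nor the time after transfection is stated in the sources used here. Whether control RNA was shared between siRNAs was not settled, since 1 control siRNA is named for the series but the samples carry a numbered control each. Separate cultures behind the 3 arrays of an siRNA are not stated. P-values for single siRNAs and for differences between siRNAs therefore reflect the scatter of hybridisations alone, possibly technical. P-values across the 3 siRNAs reflect the spread between the siRNAs.

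The cell division cycle is driven by cyclin-dependent kinases, and CDK1 with A- and B-type cyclins carries cells from G2 into mitosis. Most genes of this set are silent early in the cycle and are switched on together in G2, when FOXM1 and a complex of MYBL2 with the MuvB core replace the repressor DREAM at their promoters. The site that anchors MuvB is called the CHR, for cell cycle genes homology region, and CCAAT boxes bound by NF-Y often lie close to it. In RNA from whole cultures, fewer cells in G2 and mitosis and less messenger RNA per cell cannot be told apart.

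The promoters of the members share these letters, which are shown for 6 of the genes called lower with each siRNA or called in both directions. Members with other calls, or with none, are not shown. Promoter windows from 250 bases before to 50 bases after the annotated start came from RefSeq on GRCh38.p14, and 28 of the 33 members matched an entry. Motifs were searched as letters on both strands, with TTTGAA or TTTAAA for the CHR, CCAAT for the CCAAT box, and TTTGGCGC or TTTCGCGC for an E2F site. A CHR match lay in 23 of the 28 windows, 82.1%, against 27.9% of the 27305 genes in the table. A CCAAT match lay in 24 of the 28, 85.7%, against 39.7% of all genes, and both lay in 20, 71.4%, against 11.2%. An E2F match lay in 2 of the 28, CDK1 and NUSAP1, 7.14% against 1.4% of all genes. Among G1/S and DNA replication genes, the group that peaks one phase earlier, 7 of 36 windows held a CHR match and 13 of 36 an E2F match. TACC3 alone among the 28 held neither a CHR nor a CCAAT match. A match describes letters and is not evidence of binding.

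The stretches shown here run from 170 bases before to 30 bases after the start, 5′ to 3′ on the strand of the gene, and capitals mark CHR and CCAAT matches in either orientation. CDC20 and KIF2C (chr1:43358811-43359010 and chr1:44739667-44739866, plus strand) were lower with each siRNA. BUB1B and KIF23 (chr15:40160899-40161098 and chr15:69414179-69414378, plus strand) were lower with siRNAs 1 and 2 and higher with siRNA 3. CENPF (chr1:214603025-214603224, plus strand) was lower with siRNA 1 and higher with siRNAs 2 and 3, and TOP2A (chr17:40417867-40418066, minus strand) was higher with siRNAs 1 and 2 and lower with siRNA 3.
CDC20: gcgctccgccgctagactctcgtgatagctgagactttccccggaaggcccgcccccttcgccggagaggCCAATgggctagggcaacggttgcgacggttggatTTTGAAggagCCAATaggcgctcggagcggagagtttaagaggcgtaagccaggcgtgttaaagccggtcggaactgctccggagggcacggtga
KIF2C: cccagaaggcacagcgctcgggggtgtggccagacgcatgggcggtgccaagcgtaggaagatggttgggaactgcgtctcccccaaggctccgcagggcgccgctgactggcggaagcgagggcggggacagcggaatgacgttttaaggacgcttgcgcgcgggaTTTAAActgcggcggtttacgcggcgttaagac
BUB1B: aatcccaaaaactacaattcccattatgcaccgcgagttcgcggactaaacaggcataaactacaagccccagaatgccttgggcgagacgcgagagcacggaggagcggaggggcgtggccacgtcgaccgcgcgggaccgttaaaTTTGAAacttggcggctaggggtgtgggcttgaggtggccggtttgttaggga
KIF23: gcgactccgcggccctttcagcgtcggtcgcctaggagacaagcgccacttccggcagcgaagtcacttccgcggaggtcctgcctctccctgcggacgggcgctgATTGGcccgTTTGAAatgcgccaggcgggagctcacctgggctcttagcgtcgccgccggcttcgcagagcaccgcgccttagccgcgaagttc
CENPF: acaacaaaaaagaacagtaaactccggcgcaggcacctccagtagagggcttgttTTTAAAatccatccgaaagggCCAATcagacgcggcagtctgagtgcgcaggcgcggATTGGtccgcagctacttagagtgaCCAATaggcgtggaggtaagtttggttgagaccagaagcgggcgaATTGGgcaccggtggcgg
TOP2A: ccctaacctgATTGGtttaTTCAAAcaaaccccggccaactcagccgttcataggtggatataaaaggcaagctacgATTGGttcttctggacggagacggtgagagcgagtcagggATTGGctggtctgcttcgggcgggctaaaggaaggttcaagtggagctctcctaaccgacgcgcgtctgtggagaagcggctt
All 6 windows hold 1 CHR match each in the stretch shown. CCAAT matches number 2 in CDC20, 1 in KIF23, 4 in CENPF and 3 in TOP2A, and none lies in the stretches shown of KIF2C and BUB1B.

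**Figure D1:**
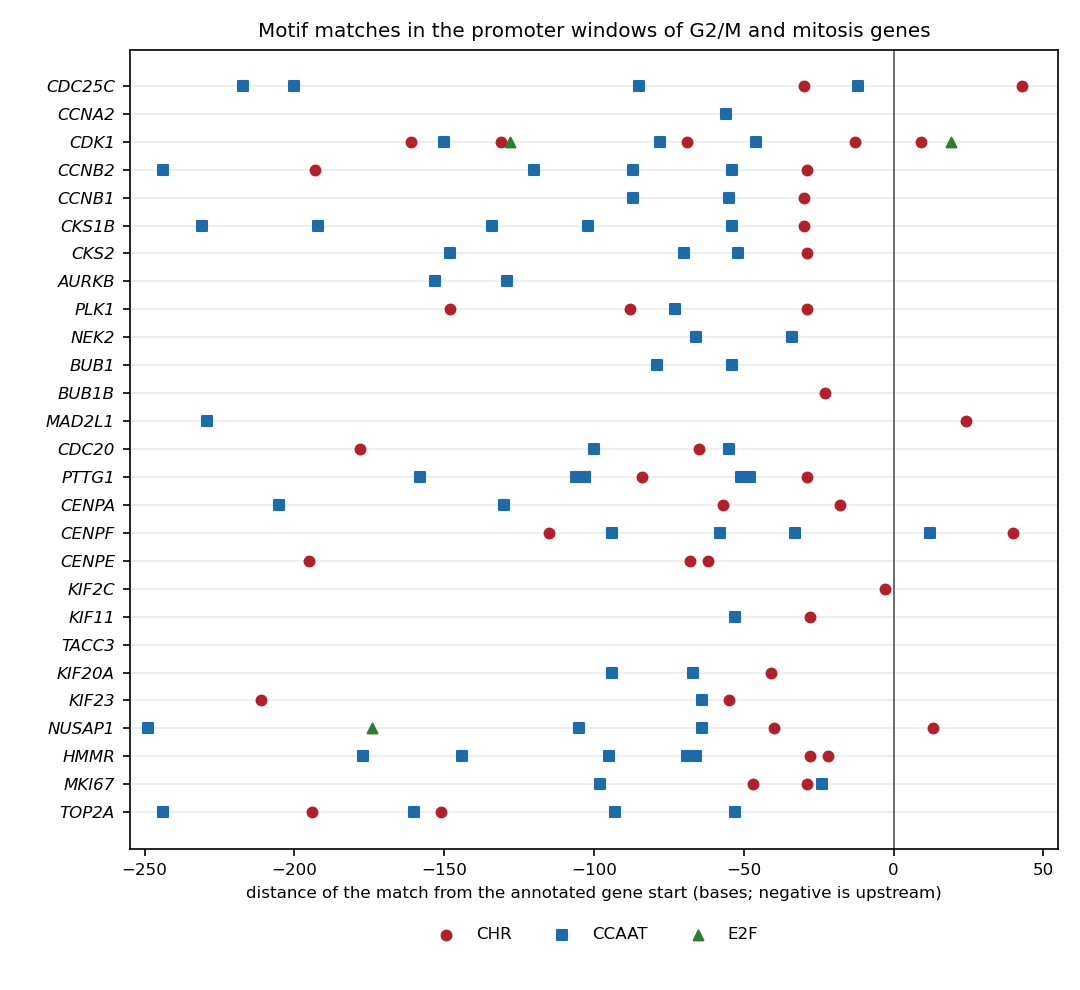
Positions of CHR (circles), CCAAT (squares) and E2F (triangles) matches in the promoter windows of the 27 measured members with an entry, in bases from the annotated gene start, with upstream negative. For the 4 genes with several annotated windows, matches of all windows are drawn, and 23 of the 28 members with an entry hold a CHR match and 24 a CCAAT match.

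All values that follow are log2 ratios of TRMT12 siRNA over control siRNA after loess normalisation within each array, so that negative values mean less RNA after knockdown. TRMT12 itself lay between -2.73 and -2.35 on the 9 arrays, and by the dye-adjusted estimates of the 3 siRNAs 16.3% to 18.1% of its level remained. Median spot signal above background ran from 273.2 to 518.9 in the knockdown channel and from 204.6 to 538.8 in the control channel. The members were bright: their mean log2 intensity had a median of 11.73 and a range of 9.21 to 14.18, against a median of 8.64 over all tested probes. All 11 marker genes of SKbr3 cells were measured, at mean log2 intensities of 8.78 to 15.49 with ERBB2 at 15.2, while 9 of 12 markers of other cell types could be tested, at 6.47 to 11.33 with COL1A1 the brightest. A single-siRNA estimate is the mean log2 ratio of that siRNA adjusted for dye orientation, from limma fitted to all 9 arrays, and a value is called where its Benjamini-Hochberg adjusted p over all tested probes is under 0.05.

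With siRNA 1, 25 of the 31 measured members were called lower, where 11.3% of all tested probes were, and 1, TOP2A, was called higher, where 11.6% were. With siRNA 2, 15 were called lower and 3 higher (TOP2A, CENPF and MAD2L1), against 9.73% and 10.5% of all probes. With siRNA 3 the set divided, with 6 called lower and 7 higher, against 10.1% and 9.9%. The median estimate over the members was -0.33, -0.18 and -0.027 for siRNAs 1, 2 and 3. The count of lower members for siRNA 1 was 12 without its dye-swapped array 3, 17 with no dye term and 19 on the Cy5 arrays alone. The count of lower members for siRNA 2 was 8 without its own array 3 and 7 with median centring in place of loess. The count of higher members for siRNA 2 was 1 without any of 6 arrays, namely the 3 of siRNA 1, array 3 of siRNA 2 and arrays 1 and 3 of siRNA 3, and that for siRNA 1 was 0 without any of its own arrays. The count of higher members for siRNA 3 was 3 without its array 3, and the split of higher and lower was 3 and 6 with median centring and 5 and 8 with the authors' calibrated ratio. A fit to the 3 arrays of each siRNA alone, with 2 residual degrees of freedom per probe before moderation, called no member with any siRNA, and called 0 of all 28259 probes as well.

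Across the 3 siRNAs, taking each siRNA as a single dye-balanced value, 26 of 31 members lay below 0, where 49.9% of all probes did, with a median of -0.21 against 0.00 for all probes. None was called by limma's moderated test at an adjusted p under 0.05, where 0.00354% of all probes were, namely the TRMT12 probe. At an unadjusted p under 0.05 there were 11 of 31, against 23.4% of all probes. The lowest values were UBE2C at -0.45 (SE 0.067, adjusted p = 0.0835), KIF2C at -0.42 (SE 0.081, adjusted p = 0.0905), CDC20 at -0.42 (SE 0.070, adjusted p = 0.0840) and BIRC5 at -0.41 (SE 0.095, adjusted p = 0.109). UBE2C, CDC20 and KIF2C passed the threshold under 3 other settings, with adjusted p between 0.0238 and 0.0477, and BIRC5 under 2 of them, as given with the limits. Those 3 settings called far more of all probes than the 1 of 28259 above, namely 1101 of 28259 with normexp, 1589 of 21395 with signal in both channels and 1545 of 20980 with low-quality spots left out. The 5 members above 0 were CENPE, HMMR, CENPF, TOP2A and CKS2, at 0.28, 0.25, 0.22, 0.11 and 0.013.

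Members divided into 3 kinds by their single-siRNA calls. AURKB, CDC20, KIF2C and UBE2C were called lower with each siRNA, 4 of 31, where 2.58% of all probes were. BUB1B, CENPF, KIF23, MAD2L1, TOP2A and TPX2 were called lower with at least 1 siRNA and higher with at least 1 other, 6 of 31, where 2.0% of all probes were. Of these 6, calls in both directions were kept by 2 with median centring (CENPF and TOP2A), 3 with the authors' calibrated ratio (with BUB1B added), 1 on the Cy5 arrays alone (TOP2A) and 2 without the dye term (KIF23 and TOP2A). The remaining 21 were called in 1 direction or not at all. On the arrays themselves, 12 members lay below 0 on all 9, against 6.64% of all probes, and none lay above 0 on all 9, against 6.05%. None was called higher with each siRNA, against 3.23%.

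**Figure D2:**
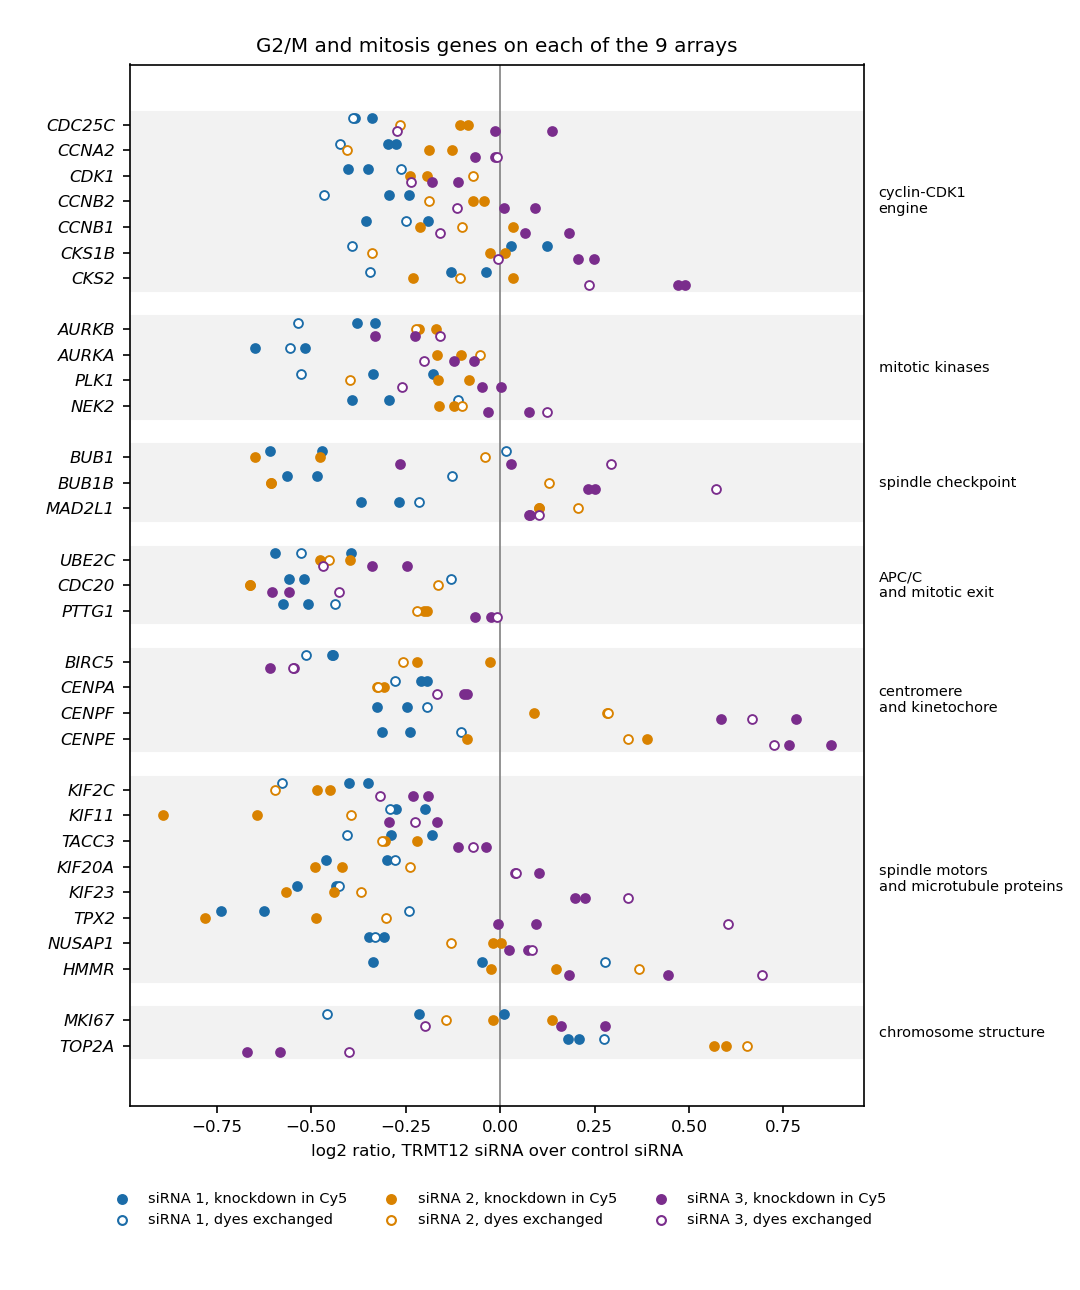
Log2 ratios of TRMT12 siRNA over control siRNA for the 31 measured members, 1 point per array, coloured by siRNA, with open points for arrays on which the dyes were exchanged and grey bands for the roles. CDC20, UBE2C and KIF2C lie below 0 on all 9 arrays, CENPE and CENPF lie above 0 on the 3 arrays of siRNA 3, and TOP2A lies below 0 on those arrays and above 0 on the other 6.

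The cyclin-CDK1 engine, which triggers mitosis, was lower with siRNA 1, where 5 of 7 members were called lower and none higher. With siRNA 2 there was 1 called lower (CCNA2), and with siRNA 3 there was 1 called higher (CKS2). Of all probes, 11.3%, 9.73% and 10.1% were called lower with siRNAs 1, 2 and 3, and 11.6%, 10.5% and 9.9% higher. With so few genes in a role, here and later, a single call is near what these shares give. Cyclin A2, encoded by CCNA2, partners CDK2 in S phase and CDK1 in G2. CCNA2 gave -0.30, -0.28 and -0.42 with siRNA 1, -0.13, -0.19 and -0.41 with siRNA 2, and -0.067, -0.014 and -0.0086 with siRNA 3, arrays being listed 1 to 3 here and later. All 9 values lay below 0, and the siRNA 3 arrays were nearest to it and overlapped neither other group. The estimates were -0.35 (SE 0.054, adjusted p = 0.00481), -0.26 (SE 0.054, adjusted p = 0.0182) and, not called, -0.049 (SE 0.054, adjusted p = 0.622). The first call was lost without array 3 of siRNA 1 (adjusted p = 0.0654) and the second without array 3 of siRNA 2 (adjusted p = 0.141). The second was also lost with median centring, on the authors' calibrated ratio, on the Cy5 arrays alone and without the dye term.

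CDC25C encodes a phosphatase that removes the inhibitory phosphates of CDK1. Its brightest probe gave -0.38, -0.34 and -0.39 with siRNA 1, -0.11, -0.086 and -0.27 with siRNA 2, and 0.14, -0.015 and -0.27 with siRNA 3. The siRNA 1 arrays lay together below all others, and the estimate was -0.40 (SE 0.060, adjusted p = 0.00446) with siRNA 1, -0.18 (SE 0.060, adjusted p = 0.0774) with siRNA 2 and -0.080 (SE 0.060, adjusted p = 0.443) with siRNA 3. The gene had 3 other, dimmer probes, and over the 4 probes the siRNA 1 estimate ran from -0.40 to 0.010. The second of the 4 was called lower with siRNA 3, at -0.27 (adjusted p = 0.0326), beside a called dye term of -0.28 (adjusted p = 0.00483). With the median of all probes standing for the gene, its siRNA 1 call was lost. Cyclin B2, from CCNB2, is one of the B-type partners of CDK1 and gave -0.24, -0.29 and -0.47 with siRNA 1, -0.044, -0.071 and -0.19 with siRNA 2, and 0.092, 0.011 and -0.11 with siRNA 3. Its siRNA 1 arrays were the lowest and overlapped neither other group, and it was called with siRNA 1 at -0.36 (SE 0.041, adjusted p = 0.00167) but not with siRNA 2 or 3, at -0.13 and -0.031. The dye term of CCNB2 was called as well, at 0.082 (SE 0.025, adjusted p = 0.0467).

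CKS2, a small adaptor that docks phosphorylated substrates on CDK1, was the brightest measured member. It gave -0.038, -0.13 and -0.35 with siRNA 1, 0.034, -0.23 and -0.11 with siRNA 2, and 0.47, 0.49 and 0.23 with siRNA 3. Only the siRNA 3 arrays all lay above 0, and they overlapped neither other group. The estimates were -0.20 (SE 0.069, adjusted p = 0.0848), -0.13 (SE 0.069, adjusted p = 0.221) and 0.37 (SE 0.069, adjusted p = 0.0114), and the siRNA 3 call was lost without any one of its own 3 arrays (adjusted p up to 0.0692) and with median centring. The remaining members of the engine were CDK1 itself, CCNB1, the other main B-type cyclin, and CKS1B, the paralog of CKS2. CDK1 and CCNB1 were called lower with siRNA 1, at -0.33 and -0.28. CKS1B was called with no siRNA, and its estimates ran from -0.17 to 0.092, with a called dye term of 0.17. A second, dimmer CKS1B probe was called with no siRNA either and had no called dye term.

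The 4 mitotic kinases were all called lower with siRNA 1, 2 of them with siRNA 2 and 1 with siRNA 3, against 11.3%, 9.73% and 10.1% of all probes. Aurora B, from AURKB, is the kinase of the chromosomal passenger complex, which corrects faulty attachments of chromosomes to the spindle. AURKB gave -0.33, -0.38 and -0.53 with siRNA 1, -0.17, -0.21 and -0.22 with siRNA 2, and -0.23, -0.33 and -0.16 with siRNA 3. All 9 arrays were below 0, the siRNA 1 arrays lay below those of siRNA 2, and the siRNA 3 arrays overlapped both. The estimates were -0.42 (SE 0.057, adjusted p = 0.00319), -0.21 (SE 0.057, adjusted p = 0.0469) and -0.24 (SE 0.057, adjusted p = 0.0264), leaving 74.8%, 86.6% and 84.4% of control. The siRNA 1 call held without any one array, the siRNA 2 call held without only 2 of the 9 (array 2 or 3 of siRNA 3; adjusted p otherwise up to 0.174), and the siRNA 3 call was lost without array 3 of siRNA 2 or array 1 or 2 of siRNA 3 (up to 0.124). The siRNA 2 call was also lost with median centring, on the authors' calibrated ratio, on the Cy5 arrays alone and without the dye term, and the siRNA 3 call with median centring and without the dye term.

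Aurora A, from AURKA, acts at centrosomes and on spindle assembly. Its brightest probe gave -0.65, -0.52 and -0.56 with siRNA 1, -0.17, -0.10 and -0.054 with siRNA 2, and -0.12, -0.070 and -0.20 with siRNA 3. The siRNA 1 arrays stood clearly below the other 6, which overlapped. The estimate was -0.57 (SE 0.051, adjusted p = 0.000701) with siRNA 1, leaving 67.1% of control, and -0.11 (SE 0.051, adjusted p = 0.177) and -0.13 (SE 0.051, adjusted p = 0.130) with siRNAs 2 and 3. A second AURKA probe of nearly the same brightness went the other way, with estimates of 0.34 (SE 0.063, adjusted p = 0.0103) with siRNA 1, 0.36 (adjusted p = 0.0106) with siRNA 2 and -0.13 (adjusted p = 0.233) with siRNA 3. That probe also had a called dye term, 0.28 (adjusted p = 0.00416), and its 3 dye-swapped arrays read 0.049, -0.0059 and -0.32. The direction of AURKA with siRNA 1 therefore rests on which probe is read, and the cause was not tested.

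NEK2, a kinase that splits centrosomes before mitosis, gave -0.39, -0.29 and -0.11 with siRNA 1, -0.12, -0.16 and -0.10 with siRNA 2, and -0.033, 0.075 and 0.12 with siRNA 3. The siRNA 3 arrays were highest and overlapped neither other group. Its estimates were -0.25 (SE 0.051, adjusted p = 0.0152), -0.11 (SE 0.051, adjusted p = 0.178) and 0.076 (SE 0.051, adjusted p = 0.380), and the siRNA 1 call was lost without any one of the 3 arrays of siRNA 1 (adjusted p up to 0.0696). PLK1, which drives mitotic entry and spindle formation, was called lower with siRNAs 1 and 2 at -0.39 and -0.26, and its dye term of 0.13 was called too. A second, dimmer PLK1 probe was called lower with siRNA 1, at -0.36. It was not called with siRNA 2, at -0.22 (adjusted p = 0.0827), and its dye term was not called.

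The spindle checkpoint delays anaphase until every chromosome is attached, and its 3 measured members were all called lower with siRNA 1, against 11.3% of all probes. With siRNA 2 there were 2 called lower and 1 higher, against 9.73% and 10.5%. With siRNA 3 there was 1 called higher, against 9.9%. BUB1B encodes BUBR1, a part of the complex that inhibits the anaphase-promoting complex. BUB1B gave -0.48, -0.56 and -0.13 with siRNA 1, -0.61, -0.61 and 0.13 with siRNA 2, and 0.23, 0.25 and 0.57 with siRNA 3. All 3 siRNA 3 arrays lay above every array of the other siRNAs, and the dye-swapped array of each siRNA was its highest. The estimates were -0.31 (SE 0.069, adjusted p = 0.0196), -0.28 (SE 0.069, adjusted p = 0.0321) and 0.43 (SE 0.069, adjusted p = 0.00652), or 80.6%, 82.3% and 135% of control, beside a called dye term of -0.24 (SE 0.041, adjusted p = 0.00808). The siRNA 3 call held without any one array but was lost with median centring, at 0.29 (adjusted p = 0.0607), on the Cy5 arrays alone, at 0.24 (adjusted p = 0.0538), and without the dye term, at 0.35 (adjusted p = 0.239). The siRNA 1 call was lost without its array 2 or 3 (adjusted p up to 0.192), and the siRNA 2 call without any of 6 arrays (up to 0.106), these being arrays 2 and 3 of siRNA 1 and arrays 1 and 2 of siRNAs 2 and 3. The siRNA 1 and 2 calls were also lost without the dye term, and the siRNA 2 call with median centring.

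BUB1, the kinase that recruits checkpoint proteins to kinetochores, gave -0.61, -0.47 and 0.017 with siRNA 1, -0.48, -0.65 and -0.040 with siRNA 2, and 0.029, -0.26 and 0.29 with siRNA 3. Here too the dye-swapped array was highest with each siRNA, the groups overlapped, and the dye term was -0.25 (SE 0.043, adjusted p = 0.00873). The estimates were -0.27 (SE 0.072, adjusted p = 0.0368), -0.31 (SE 0.072, adjusted p = 0.0279) and 0.10 (SE 0.072, adjusted p = 0.407). Both calls were lost without any one array of the siRNA concerned or without array 3 of siRNA 3, the first also without array 3 of siRNA 2 and the second without array 3 of siRNA 1 (adjusted p up to 0.157 and 0.113). Without the dye term both BUB1 calls were lost as well, and with median centring the second was. MAD2L1 encodes MAD2, the checkpoint protein that captures CDC20. It gave -0.27, -0.37 and -0.21 with siRNA 1, 0.10, 0.10 and 0.21 with siRNA 2, and 0.078, 0.077 and 0.10 with siRNA 3. The siRNA 1 arrays were all below 0 and the other 6 all above it. The estimates were -0.27 (SE 0.042, adjusted p = 0.00502), 0.15 (SE 0.042, adjusted p = 0.0476) and 0.099 (SE 0.042, adjusted p = 0.158). The siRNA 1 call was lost without its array 3 (adjusted p = 0.0527), and the siRNA 2 call was lost without any one of the 9 arrays (up to 0.215) and also with median centring, on the authors' calibrated ratio, on the Cy5 arrays alone and without the dye term, at 0.10 to 0.14.

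The 3 genes of the anaphase-promoting complex and mitotic exit were all called lower with siRNAs 1 and 2, and 2 of the 3 with siRNA 3. The shares of all probes called lower were 11.3%, 9.73% and 10.1% with siRNAs 1, 2 and 3. CDC20, the activator that turns the complex on, gave -0.52, -0.56 and -0.13 with siRNA 1, -0.66, -0.66 and -0.17 with siRNA 2, and -0.60, -0.56 and -0.43 with siRNA 3. All 9 values lay below 0 and the siRNAs overlapped. The estimates were -0.34 (SE 0.060, adjusted p = 0.00788), -0.44 (SE 0.060, adjusted p = 0.00401) and -0.47 (SE 0.060, adjusted p = 0.00311), and 78.8%, 73.8% and 72.2% of control remained. The dye-swapped array of each siRNA was its nearest to 0, with a called dye term of -0.18 (SE 0.036, adjusted p = 0.0142), and the siRNA 1 call was lost without array 3 of siRNA 1 (adjusted p = 0.0643) and without the dye term. UBE2C, the ubiquitin-conjugating enzyme that works with the complex, gave -0.40, -0.60 and -0.53 with siRNA 1, -0.40, -0.48 and -0.45 with siRNA 2, and -0.34, -0.25 and -0.47 with siRNA 3. All 9 were below 0 and the siRNAs overlapped. The estimates were -0.52 (SE 0.057, adjusted p = 0.00147), -0.45 (SE 0.057, adjusted p = 0.00300) and -0.36 (SE 0.057, adjusted p = 0.00632), with no called dye term, and the siRNA 3 call was lost without array 3 of siRNA 3 (adjusted p = 0.0793) and on the Cy5 arrays alone.

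PTTG1 encodes securin, the anaphase inhibitor that the complex destroys. It gave -0.51, -0.58 and -0.44 with siRNA 1, -0.20, -0.19 and -0.22 with siRNA 2, and -0.067, -0.025 and -0.0081 with siRNA 3. The siRNAs did not overlap, with siRNA 1 lowest and siRNA 3 close to 0. The estimates were -0.50 (SE 0.043, adjusted p = 0.000626), -0.20 (SE 0.043, adjusted p = 0.0206) and -0.027 (SE 0.043, adjusted p = 0.759). The siRNA 2 call was lost without array 1 or 3 of siRNA 2 (adjusted p up to 0.147). It was also lost with median centring, on the authors' calibrated ratio, on the Cy5 arrays alone and without the dye term. PTTG1 has near-identical copies in the genome, PTTG2 and PTTG3P, and an oligonucleotide may not tell them apart, so its values are uncertain.

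The centromere and kinetochore genes parted ways. CENPE, a kinesin that carries chromosomes to the spindle equator, gave -0.31, -0.24 and -0.10 with siRNA 1, 0.39, -0.089 and 0.34 with siRNA 2, and 0.87, 0.76 and 0.72 with siRNA 3. The siRNA 1 arrays were all below 0, the siRNA 3 arrays were all far above it, and the siRNA 2 arrays lay between, from below to above 0. The estimate with siRNA 3 was 0.80 (SE 0.097, adjusted p = 0.00262), 174% of control, the highest of any measured member with any siRNA. With siRNAs 1 and 2 the estimates were -0.20 (SE 0.097, adjusted p = 0.190) and 0.23 (SE 0.097, adjusted p = 0.143). CENPF, a large kinetochore protein that accumulates in G2, gave -0.33, -0.25 and -0.19 with siRNA 1, 0.090, 0.28 and 0.28 with siRNA 2, and 0.58, 0.78 and 0.67 with siRNA 3. The 3 siRNAs did not overlap and stood in the order 1, 2, 3 from lowest to highest. The estimates were -0.25 (SE 0.061, adjusted p = 0.0296), 0.23 (SE 0.061, adjusted p = 0.0424) and 0.69 (SE 0.061, adjusted p = 0.00127), the last being 161% of control. The siRNA 3 calls of CENPE and CENPF held without any one array. The CENPF call with siRNA 1 was lost without any array of siRNA 1 or array 3 of siRNA 2 or 3 (adjusted p up to 0.153), and its siRNA 2 call held without only 2 of the 9 (array 1 of siRNA 2 or array 2 of siRNA 3; up to 0.197). The CENPF call with siRNA 2 was also lost with median centring, on the authors' calibrated ratio, on the Cy5 arrays alone and without the dye term, and its siRNA 1 call under the last pair of settings.

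BIRC5 encodes survivin, a subunit of the chromosomal passenger complex with Aurora B. It gave -0.44, -0.44 and -0.51 with siRNA 1, -0.22, -0.026 and -0.26 with siRNA 2, and -0.55, -0.61 and -0.55 with siRNA 3. All 9 arrays were below 0 and the 3 siRNAs did not overlap, with siRNA 3 lowest and siRNA 2 nearest to 0. The estimates were -0.48 (SE 0.054, adjusted p = 0.00159), -0.18 (SE 0.054, adjusted p = 0.0607) and -0.58 (SE 0.054, adjusted p = 0.00134), leaving 71.8%, 88.4% and 67.0% of control. Both calls held without any one array. CENPA, the histone variant that marks centromeres, was below 0 on all 9 arrays and was called lower with siRNAs 1 and 2, at -0.24 and -0.33. A second, dimmer CENPA probe was called lower with each siRNA, at -0.31, -0.25 and -0.49, and its dye term of 0.11 was called too (adjusted p = 0.0292).

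Among the 8 measured spindle motors and microtubule proteins, 6 were called lower with siRNA 1 and 6 with siRNA 2, against 11.3% and 9.73% of all probes. With siRNA 3 there were 3 called higher and 1 lower, against 9.9% and 10.1%. KIF2C, a kinesin that depolymerises microtubules at kinetochores, gave -0.35, -0.40 and -0.58 with siRNA 1, -0.45, -0.49 and -0.60 with siRNA 2, and -0.23, -0.19 and -0.32 with siRNA 3. All 9 were below 0, and the siRNA 3 arrays lay above those of both other siRNAs without overlap. The estimates were -0.47 (SE 0.041, adjusted p = 0.000663), -0.53 (SE 0.041, adjusted p = 0.000568) and -0.27 (SE 0.041, adjusted p = 0.00543) and all were kept without any one array, but the last was lost on the Cy5 arrays alone and without the dye term. A second, dimmer KIF2C probe gave -0.49, -0.43 and -0.29, all called. KIF11, the plus-end motor that pushes spindle poles apart, gave -0.28, -0.20 and -0.29 with siRNA 1, -0.64, -0.89 and -0.40 with siRNA 2, and -0.17, -0.29 and -0.22 with siRNA 3. The siRNA 2 arrays were the lowest and the other 6 overlapped. It was called with siRNA 2 at -0.63 (SE 0.085, adjusted p = 0.00379), 64.8% of control, and not with siRNA 1 at -0.24 (SE 0.085, adjusted p = 0.0921) or siRNA 3 at -0.21 (SE 0.085, adjusted p = 0.140).

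KIF23 encodes a kinesin of the central spindle that is needed for cytokinesis. KIF23 gave -0.43, -0.54 and -0.43 with siRNA 1, -0.44, -0.57 and -0.37 with siRNA 2, and 0.20, 0.23 and 0.34 with siRNA 3. The siRNA 1 and 2 arrays overlapped below 0 and all siRNA 3 arrays lay above it. The estimates were -0.45 (SE 0.047, adjusted p = 0.00120), -0.44 (SE 0.047, adjusted p = 0.00163) and 0.27 (SE 0.047, adjusted p = 0.00860), or 73.3%, 73.7% and 121% of control, and the last was lost without array 3 of siRNA 3 (adjusted p = 0.0858). It was also lost with median centring, at 0.12 (adjusted p = 0.431), on the authors' calibrated ratio, at 0.16 (adjusted p = 0.157), and on the Cy5 arrays alone, at 0.21 (adjusted p = 0.0925). A second, dimmer KIF23 probe gave estimates of the same signs, -0.35, -0.33 and 0.14. The first and second were called (adjusted p = 0.0167 and 0.0250) and the third was not (adjusted p = 0.248). The dye term of that probe was called, at -0.21 (adjusted p = 0.0169), and its siRNA 3 arrays read -0.24, 0.037 and 0.43. TPX2, the protein that activates Aurora A on the spindle, gave -0.62, -0.74 and -0.24 with siRNA 1, -0.49, -0.78 and -0.30 with siRNA 2, and -0.0047, 0.095 and 0.60 with siRNA 3. Its siRNA 3 arrays lay above all the others but ranged from about 0 to 0.60, and the dye-swapped array was highest with each siRNA. The estimates were -0.46 (SE 0.071, adjusted p = 0.00494), -0.45 (SE 0.071, adjusted p = 0.00694) and 0.31 (SE 0.071, adjusted p = 0.0256), with a called dye term of -0.22 (SE 0.043, adjusted p = 0.0120). The first and second calls were lost without array 3 of the siRNA concerned (adjusted p = 0.0631 and 0.0643) and without the dye term. The siRNA 3 call was lost without any of its own arrays or array 3 of siRNA 1 (adjusted p up to 0.219). That siRNA 3 call was also lost with median centring, on the authors' calibrated ratio, on the Cy5 arrays alone and without the dye term, with estimates from 0.045 to 0.23 and adjusted p from 0.202 to 0.771.

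KIF20A, a cytokinesis kinesin also named MKLP2, gave -0.30, -0.46 and -0.28 with siRNA 1, -0.49, -0.42 and -0.24 with siRNA 2, and 0.040, 0.10 and 0.042 with siRNA 3. The arrays of siRNAs 1 and 2 overlapped below 0, and those of siRNA 3 lay just above it. The estimates were -0.33 (SE 0.057, adjusted p = 0.00774), -0.37 (SE 0.057, adjusted p = 0.00671) and, not called, 0.078 (SE 0.057, adjusted p = 0.431), and the siRNA 1 call was lost without array 3 of siRNA 1 (adjusted p = 0.0810). NUSAP1, a microtubule-bundling protein of the spindle, gave -0.31, -0.35 and -0.33 with siRNA 1, 0.0028, -0.018 and -0.13 with siRNA 2, and 0.074, 0.023 and 0.085 with siRNA 3. Its siRNA 1 arrays lay together below the rest, at -0.33 (SE 0.044, adjusted p = 0.00283), and siRNAs 2 and 3 stood near 0, at -0.054 and 0.055. HMMR, a microtubule-binding protein that helps set spindle orientation, gave -0.34, -0.048 and 0.28 with siRNA 1, -0.024, 0.15 and 0.37 with siRNA 2, and 0.18, 0.44 and 0.69 with siRNA 3. Its groups overlapped, the dye-swapped array was highest with each siRNA, and the dye term was -0.19 (SE 0.048, adjusted p = 0.0271). HMMR was called with siRNA 3 at 0.50 (SE 0.080, adjusted p = 0.00650), not with siRNA 1 at 0.028 (SE 0.080, adjusted p = 0.855) or siRNA 2 at 0.23 (SE 0.080, adjusted p = 0.0917), and the call was lost without array 3 of siRNA 3 (adjusted p = 0.0664), on the Cy5 arrays alone and without the dye term. TACC3, a clathrin partner that steadies spindle fibres, was below 0 on all 9 arrays and was called lower with siRNAs 1 and 2, at -0.30 and -0.29. A second, far dimmer TACC3 probe, with a ratio on 8 arrays, was called with no siRNA, at -0.23, -0.32 and -0.25.

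TOP2A, the topoisomerase that untangles sister chromatids, was called higher with siRNAs 1 and 2, where most of the set was lower or not called, and was called lower with siRNA 3. TOP2A gave 0.21, 0.18 and 0.28 with siRNA 1, 0.60, 0.57 and 0.65 with siRNA 2, and -0.67, -0.58 and -0.40 with siRNA 3. The 3 siRNAs did not overlap: siRNA 2 was highest, siRNA 1 above 0, and siRNA 3 below 0 on all of its arrays. The estimates were 0.24 (SE 0.046, adjusted p = 0.0111), 0.63 (SE 0.046, adjusted p = 0.000498) and -0.53 (SE 0.046, adjusted p = 0.00120), so that 118%, 154% and 69.3% of the control level was read. Its dye term was -0.063 and not called. The siRNA 2 and 3 calls held without any one array, while the siRNA 1 call was lost without any array of siRNA 1 (adjusted p up to 0.0757), and also after median centring, on the authors' calibrated ratio, on the Cy5 arrays alone and without the dye term. MKI67 encodes the proliferation antigen Ki-67, which coats mitotic chromosomes. It was the dimmest measured member and gave -0.22, 0.010 and -0.46 with siRNA 1, 0.14, -0.019 and -0.14 with siRNA 2, and 0.28, 0.16 and -0.20 with siRNA 3. The groups overlapped, the dye-swapped array was lowest with each siRNA, and the dye term was 0.16 (SE 0.040, adjusted p = 0.0259). It was called with siRNA 1 only, at -0.28 (SE 0.067, adjusted p = 0.0268), and that call was lost without array 1 or 3 of siRNA 1 (up to 0.195). The call was lost as well on the Cy5 arrays alone and without the dye term. With siRNAs 2 and 3 the estimates were -0.063 and 0.026.

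Dye terms were called in 9 of the 31 members, 4 in 1 direction and 5 in the other, where 29.2% of all tested probes were called in either. These 9 included BUB1, BUB1B, TPX2, CDC20 and HMMR, whose dye-swapped arrays read higher, and CKS1B, PLK1, MKI67 and CCNB2, whose dye-swapped arrays read lower. For these genes the estimates depend on the dye term. Single-siRNA calls lost without the term or on the Cy5 arrays alone are given beside each gene described array by array. Counts of calls under these settings are given in part, beside the counts above and with the limits.

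The siRNAs were next compared directly, by the difference of their estimates in the same fit. For siRNA 3 minus siRNA 1, 14 members were called higher and 1 lower, against 4.26% and 4.97% of all probes, with a median difference of 0.32 over the members. CENPE differed by 1.01 (SE 0.13, adjusted p = 0.0104) and CENPF by 0.93 (SE 0.085, adjusted p = 0.00498), the largest positive differences among the 31 members in this comparison. TPX2, BUB1B and KIF23 followed at 0.77 (SE 0.099, adjusted p = 0.00978), 0.74 (SE 0.096, adjusted p = 0.00978) and 0.72 (SE 0.065, adjusted p = 0.00488). TOP2A was the member called lower, at -0.77 (SE 0.064, adjusted p = 0.00455). All 15 differences had the same direction on the Cy5 arrays and on the dye-swapped arrays taken separately. They were called from a fit to these same arrays, so the shared direction is no separate check.

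The calls of CENPF, KIF23 and TOP2A held without any one array. PTTG1, at 0.47 (SE 0.059, adjusted p = 0.00935), was lost without array 1 of siRNA 3 (adjusted p = 0.0507) and TPX2 without array 3 of siRNA 1 (0.0521). BUB1B and CENPE were lost without either of those arrays (adjusted p up to 0.0537 and 0.0548). The other 8 called members, AURKA, CCNB2, CKS2, HMMR, KIF20A, MAD2L1, NEK2 and NUSAP1, differed by 0.32 to 0.57 and were each lost without array 2 or 3 of siRNA 1, without array 1 or 2 of siRNA 3 and without up to 4 further arrays, at adjusted p up to 0.140. The count of higher members was accordingly 3 without array 3 of siRNA 1 or array 1 of siRNA 3, 6 without array 2 of either, 7 without array 3 of siRNA 3 and 8 without array 1 of siRNA 1. It was 1 with median centring, 8 with the authors' calibrated ratio, 4 with no dye term and 0 on the 6 Cy5 arrays alone, while the median difference stayed between 0.29 and 0.36 under all these settings. Calls over all probes fell as well, from 2608 of 28259 in either direction to 67, 673, 403 and 0 under the same 4 settings. With the median of its probes, the AURKA difference was -0.011 (adjusted p = 0.944), and its second probe was called in the opposite direction, at -0.47 (SE 0.088, adjusted p = 0.0249).

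For siRNA 3 minus siRNA 2, 9 members were called higher and 2 lower, against 5.32% and 4.85% of all probes, with a median difference of 0.18. TPX2, BUB1B and KIF23 differed by 0.75 (SE 0.099, adjusted p = 0.00917), 0.71 (SE 0.096, adjusted p = 0.00972) and 0.71 (SE 0.065, adjusted p = 0.00474). CENPE, CKS2, CENPF and KIF20A were called higher too, at 0.58, 0.50, 0.46 and 0.44, as were BUB1 at 0.41 and KIF2C at 0.26. The second KIF2C probe gave 0.14 (adjusted p = 0.262), and the KIF2C call was lost with the median of its probes. TOP2A was lower by far the widest margin, -1.16 (SE 0.064, adjusted p = 0.00178), and stayed called under all 18 alternatives tried. The alternative without the filter on dim probes tested the same probes and repeats the main fit. BIRC5 was lower at -0.40 (SE 0.075, adjusted p = 0.0222). The second AURKA probe was called lower here, at -0.48 (adjusted p = 0.0210), where its brightest probe gave -0.023 (adjusted p = 0.867). All 11 differences kept their direction on the Cy5 and on the dye-swapped arrays, which again is no separate check.

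Without any one array, the calls of KIF23, TOP2A and TPX2 held. BUB1B was lost without array 1 of siRNA 3 (adjusted p = 0.0528), BIRC5 without any array of siRNA 3 (up to 0.0869) and KIF20A without array 1 of siRNA 2 or array 1 or 2 of siRNA 3 (up to 0.0837). CENPF and CKS2 were lost without array 1 of siRNA 2 or any array of siRNA 3, and CENPF also without array 3 of siRNA 2 (up to 0.0750 and 0.0940). CENPE was lost without any array but 1 or 2 of siRNA 2, and BUB1 and KIF2C without any array at all (up to 0.151, 0.132 and 0.112). The split of higher and lower was 0 and 1 with median centring and 5 and 1 with the authors' ratio, where calls over all probes in either direction were 61 and 979 against 2873. It was 2 and 1 without array 1 of siRNA 3, 3 and 1 without array 2, and 4 and 1 without array 3. Without array 1 of siRNA 2 it was 4 and 2.

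For siRNA 2 minus siRNA 1, 4 members were called higher and none lower, against 0.984% and 1.59% of all probes. They were CENPF at 0.48 (SE 0.085, adjusted p = 0.0431), AURKA at 0.47 (SE 0.071, adjusted p = 0.0320), MAD2L1 at 0.42 (SE 0.058, adjusted p = 0.0249) and TOP2A at 0.38 (SE 0.064, adjusted p = 0.0371). These calls were the least stable: each was lost without any one array, except MAD2L1 without array 2 of siRNA 2, and none was called with median centring, on the Cy5 arrays alone or without a dye term. The second AURKA probe differed by 0.016 (SE 0.088, adjusted p = 0.936), and the AURKA call was lost with the median of its probes. KIF11 went the other way at -0.39 (SE 0.12, adjusted p = 0.139), not called. Arrays of siRNAs 1 and 3 did not overlap in 22 of the 31 members, where 23.0% of all probes showed no overlap, those of siRNAs 2 and 3 in 17 against 21.6%, and those of siRNAs 1 and 2 in 14 against 16.8%. The comparisons share siRNA groups, so their values are set side by side and were not correlated.

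**Figure D3:**
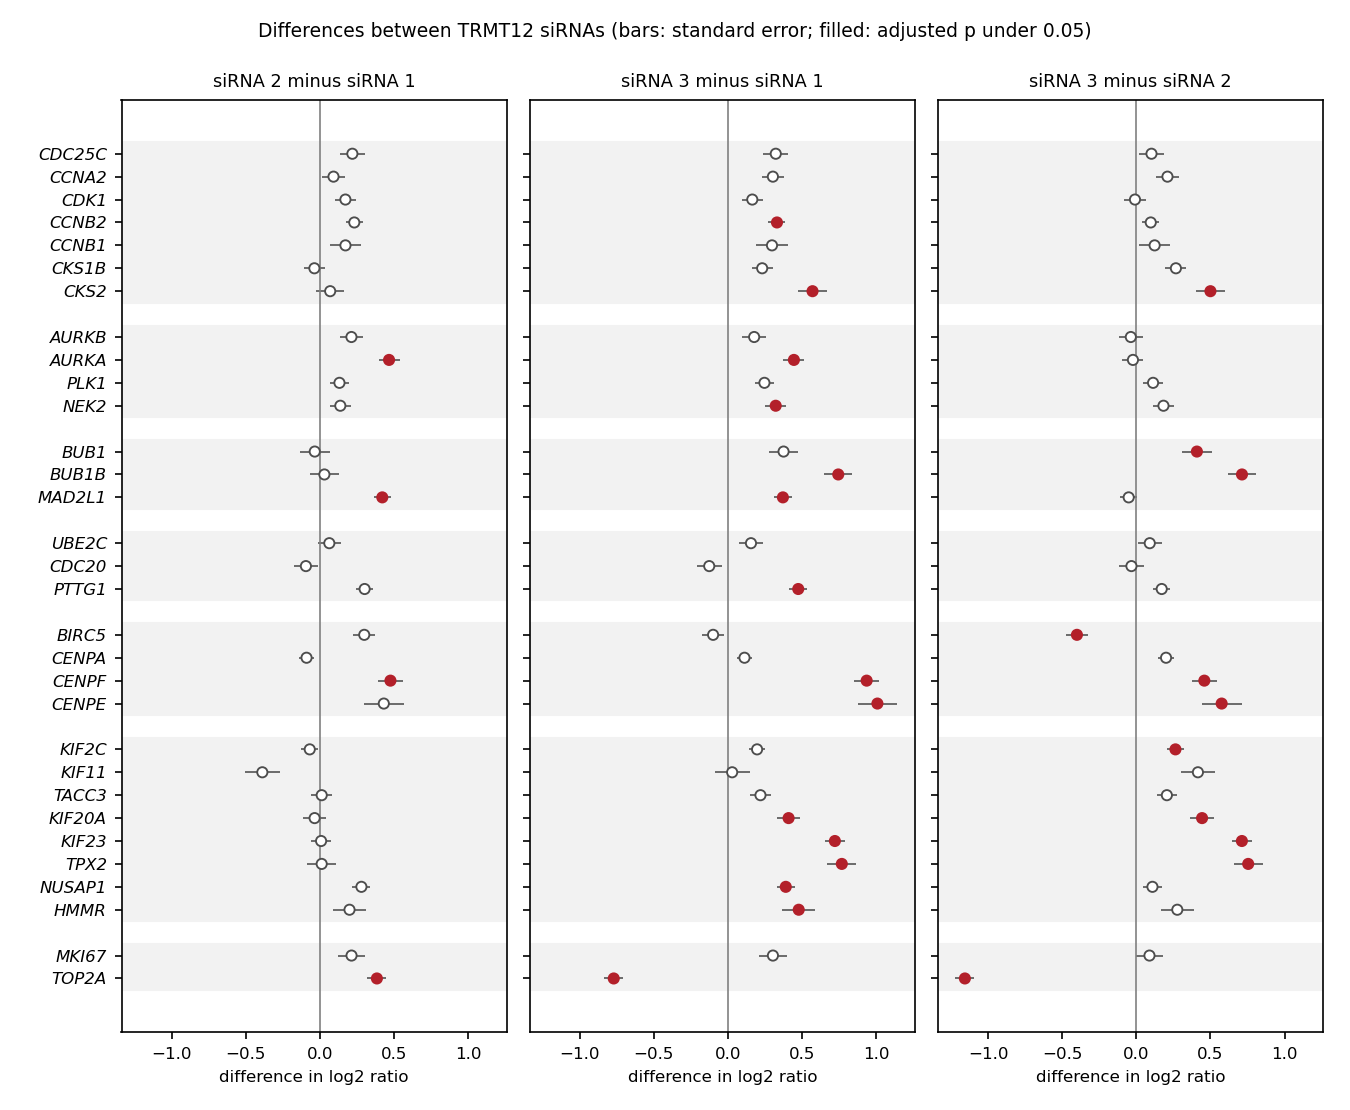
Differences in log2 ratio between TRMT12 siRNAs for the 31 measured members, with standard errors from the fit and filled points where the adjusted p was under 0.05. In siRNA 3 minus siRNA 1, 14 filled points lie to the right of 0 and TOP2A lies to the left at -0.77, and in siRNA 3 minus siRNA 2 TOP2A lies at -1.16.

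A wider list of 134 other mitotic genes, of which 123 were measured, was counted in the same way. With siRNA 1, 43 were called lower and 8 higher, against 11.3% and 11.6% of all probes. With siRNA 2 it was 32 and 9, against 9.73% and 10.5%. With siRNA 3 it was 14 and 30, against 10.1% and 9.9%, so that the lower count stood near the share of all probes. For siRNA 3 minus siRNA 1, 32 were called higher and 1 lower, against 4.26% and 4.97%. Across siRNAs 71 of 123 lay below 0, with a median of -0.042, and none was called by limma, with 34 at an unadjusted p under 0.05, near the 23.4% of all probes. Genes of G1/S and DNA replication, 41 of 43 measured, had 22, 19 and 11 called lower with siRNAs 1, 2 and 3 and 0, 2 and 3 called higher, and 37 of 41 lay below 0 across siRNAs, where 49.9% of all probes did, with a median of -0.20. Their counts are read against the same shares of all probes.

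**Figure D4:**
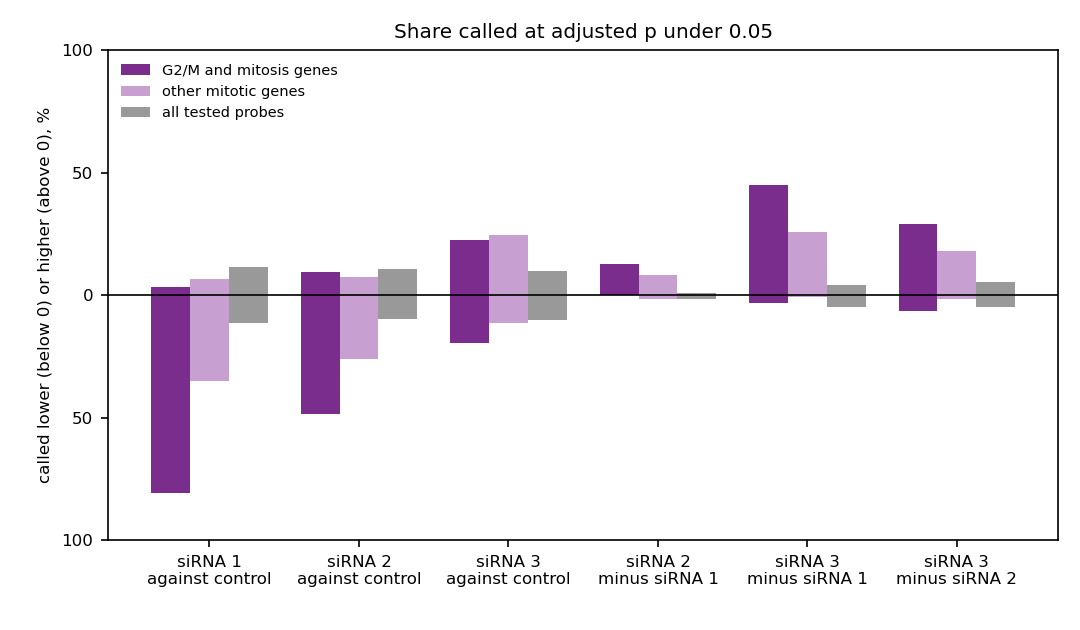
Percent of the 31 G2/M and mitosis genes, the 123 other mitotic genes and all 28259 tested probes called higher (upward bars) or lower (downward bars) at an adjusted p under 0.05, by comparison. With siRNA 1, 25 of 31 members were lower against 11.3% of all probes, and in siRNA 3 minus siRNA 1, 14 of 31 were higher against 4.26%.

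Within that wider list 11 of 123 genes were called lower with each siRNA, where 2.58% of all probes were, and the 10 with the lowest means were CCNF, CDC25B, PKMYT1, FAM83D, CENPH, ESPL1, MYBL2, HJURP, CDCA5 and CDCA8. CCNF, the F-box cyclin that helps limit centrosome number, had the lowest mean, at -0.58 (SE 0.11, adjusted p = 0.0902), and its estimates were -0.85, -0.49 and -0.40. PKMYT1, a kinase that holds CDK1 inactive, and CDC25B, a phosphatase that starts its activation, had means of -0.39 (SE 0.071, adjusted p = 0.0902) and -0.41 (SE 0.096, adjusted p = 0.111), which were not called across siRNAs. ESPL1 encodes separase, the protease that cuts cohesin, and had a mean of -0.35. MYBL2, the activator named above, gave -0.41 (SE 0.052, adjusted p = 0.00247), -0.38 (SE 0.052, adjusted p = 0.00396) and -0.20 (SE 0.052, adjusted p = 0.0395). FOXM1, its partner, gave -0.47 (SE 0.060, adjusted p = 0.00244) and -0.45 (SE 0.060, adjusted p = 0.00353) and, not called with siRNA 3, -0.16 (SE 0.060, adjusted p = 0.126). It was named for its role in the background, after its values were seen.

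The other low means were KIF4A at -0.49 (SE 0.20, adjusted p = 0.220) and SKA1 at -0.44 (SE 0.14, adjusted p = 0.164), a chromosome-bound kinesin and a microtubule-binding kinetochore subunit. Neither was called with siRNA 3, at 0.065 and -0.080. ENSA and NDC80 were called higher with each siRNA, 2 of 123, which is under the 3.23% of all probes that were. NDC80, the main microtubule receptor of the kinetochore, gave 0.26 (SE 0.054, adjusted p = 0.0149), 0.43 (SE 0.054, adjusted p = 0.00291) and 0.26 (SE 0.054, adjusted p = 0.0175). ENSA, an inhibitor of the phosphatase that opposes CDK1, gave 0.31, 0.33 and 0.30. The highest means were ASPM at 0.46 (SE 0.16, adjusted p = 0.182), KIF20B at 0.36 (SE 0.21, adjusted p = 0.360) and CDKN1A at 0.36 (SE 0.11, adjusted p = 0.164). ASPM, a spindle pole protein, was called higher with siRNA 1 at 0.93 (SE 0.12, adjusted p = 0.00288) and not with siRNAs 2 and 3, at 0.17 and 0.28, and KIF20B, a kinesin of cytokinesis, with none. CDKN1A encodes the CDK inhibitor p21, which p53 induces, and was called higher with siRNA 1 at 0.62 (SE 0.065, adjusted p = 0.00119) and siRNA 3 at 0.32 (SE 0.065, adjusted p = 0.0157).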

How the data were processed

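Total RNA from SKbr3 cells was amplified with T7 polymerase, labelled with Cy dyes and hybridised to 9 two-colour oligonucleotide arrays, per the labels' protocols. The deposited intensity of each channel is the mean spot signal above local background, with 1 where no spot was found, per the file headers. The authors' calibrated ratio is knockdown over control intensity divided by 1 factor per array, and the deposited spot quality is a fraction from 0 to 1. The deposited series table equals log2 of that ratio within 0.001, with the sign turned on the 3 dye-swapped arrays, and its array medians ran from -0.2576 to 0.0421.

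Log2 ratios were normalised by loess within each array in limma 3.58.1 (R 4.3.3), with no further background correction, because the deposited intensity was already corrected; the normexp correction first planned became an alternative. Of 35328 probes, 30242 were detected, with a signal above 2 background standard deviations on at least 6 arrays, and 28259 could be tested. Across siRNAs, each siRNA gave 1 dye-balanced value, averaging its Cy5 arrays first and then that average with the swapped array, tested against 0. Single siRNAs and their differences were tested on all 9 arrays with a dye term. P-values were adjusted by Benjamini-Hochberg over all tested probes, with a threshold of 0.05. The number of arrays limits the precision. Of the members' 41 probes, 36 were named by current platform symbol, 3 by transcript accession (BUB1, PTTG1 and 1 of CDC25C) and 2 (CKS1B) by accession where the platform gives the rodent symbol.

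Described array by array were, in each role, the 2 members with the largest mean, those called with each siRNA, those with a called difference between siRNAs, and those whose mean opposed the list's median. The other mitotic genes named were the 3 highest, the 3 lowest and those called the same way with each siRNA, up to 10 a direction. The members and lists were chosen with earlier results of these data known. Fits were tested on simulated data without random spread between siRNAs, so the test across siRNAs was not tried under such spread. Alternatives covered normalisation, filters, dye handling, probe choice and leaving out each array. Promoters came from RefSeq, GRCh38.p14.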

Additional observations from a re-analysis of the deposited data

Results flagged for a closer look

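In 30 instances the change of a G2/M or mitosis gene differed between a pair of siRNAs against the same target, by limma's test of the difference itself (adjusted p under 0.05 over all tested probes). The values are differences in log2 ratio. For siRNA 2 minus siRNA 1 they were AURKA at 0.47, MAD2L1 at 0.42, CENPF at 0.48 and TOP2A at 0.38. For siRNA 3 minus siRNA 1 they were CCNB2 at 0.33, CKS2 at 0.57, AURKA at 0.44, NEK2 at 0.32, BUB1B at 0.74, MAD2L1 at 0.37, PTTG1 at 0.47, CENPE at 1.01, CENPF at 0.93, KIF20A at 0.41, KIF23 at 0.72, TPX2 at 0.77, NUSAP1 at 0.39, HMMR at 0.48 and TOP2A at -0.77. For siRNA 3 minus siRNA 2 they were CKS2 at 0.50, BUB1 at 0.41, BUB1B at 0.71, CENPE at 0.58, CENPF at 0.46, BIRC5 at -0.40, KIF20A at 0.44, KIF23 at 0.71, KIF2C at 0.26, TPX2 at 0.75 and TOP2A at -1.16. The comparisons share siRNA groups, and a gene can stand in more than 1 of them. AURKA has a second probe of nearly the same brightness, which gave 0.016 (adjusted p = 0.936) for siRNA 2 minus siRNA 1 and -0.47 (adjusted p = 0.0249) for siRNA 3 minus siRNA 1, so both AURKA instances rest on which probe is read. The second KIF2C probe gave 0.14 (adjusted p = 0.262) for siRNA 3 minus siRNA 2 and was not called. All 30 had the same direction on the Cy5 and on the dye-swapped arrays, but they were called from a fit to these same arrays. How the calls fared without single arrays is given beside each comparison in the results, and the cause of the differences was not tested.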

How the results depend on the processing

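Knockdown and control RNA were paired within each array by the ratio. Arrays of different siRNAs could not be paired with each other, because the array numbers follow accession order and pair no samples. Among counts and medians recomputed under alternatives, 308 were labelled the same, 83 moved and 2 reversed. The label allowed some change. It covered a fall of lower members with siRNA 1 from 25 to 19 on the Cy5 arrays alone. A median across siRNAs of -0.11 without siRNA 1, against -0.21, was labelled the same too. Among values of single genes 1984 were labelled the same, 37 moved, 410 lost and 33 gained a call and 1 reversed. The cause of a change was not tested unless fewer arrays or probes entered. Without a filter on dim probes the same 28259 probes were tested as in the main fit. That setting is therefore no separate check, and its values are among those labelled the same. With median centring the medians were -0.31 across siRNAs, -0.48 and -0.17 for siRNAs 1 and 3, 0.28 for siRNA 2 minus 1 and 0.061 for siRNA 3 minus 2. Higher and lower counts were then 0 and 27 (siRNA 1), 1 and 7 (siRNA 2), 3 and 6 (siRNA 3), 1 and 0 (siRNA 3 minus 1), 0 and 1 (siRNA 3 minus 2), with 0 higher for siRNA 2 minus 1. With the authors' calibrated ratio the siRNA 1 and 3 medians were -0.43 and -0.13, and higher counts were 0, 1 and 5 for siRNAs 1, 2 and 3 and 1, 8 and 5 for differences 2 minus 1, 3 minus 1 and 3 minus 2, the last with 1 lower. On the 6 Cy5 arrays the siRNA 3 median turned to 0.021, higher counts were 0, 1 and 3 for the siRNAs and 0 for each difference, and lower counts were 0 (siRNA 3 minus 1) and 1 (siRNA 3 minus 2). Without the dye term higher counts were 0, 1 and 4 for the siRNAs, 8 were lower with siRNA 2, and the differences gave 0, 4 and 1 higher, with 1 lower for siRNA 3 minus 2. With only the arrays of 1 siRNA, 0 were called in either direction. Across siRNAs 3 members were called lower with normexp (UBE2C, CDC20 and KIF2C, adjusted p = 0.0371, 0.0402 and 0.0477), and 4, with BIRC5 added, with signal in both channels on all arrays or with low-quality spots left out; these settings gave 7 and 8 higher for siRNA 2 minus 1. With the median of all probes of a gene, AURKA for siRNA 3 minus 1 turned to -0.011 (adjusted p = 0.944).

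Without 1 array at a time, 12 to 28 members were lower and 0 to 1 higher with siRNA 1, 8 to 14 lower and 1 to 2 higher with siRNA 2, and 5 to 7 lower and 3 to 7 higher with siRNA 3. Higher counts for the differences were 0 to 2 (2 minus 1), 3 to 14 (3 minus 1) and 2 to 7 (3 minus 2), with 1 to 2 lower in the last. Medians ran from -0.28 to -0.11 across siRNAs, leaving out an array or a whole siRNA, and from -0.038 to 0.012 for siRNA 3, whose positive end, 0.012, came without its array 3. Other median ranges were -0.34 to -0.32 for siRNA 1, -0.20 to -0.18 for siRNA 2, and 0.11 to 0.14, 0.29 to 0.35 and 0.15 to 0.20 for the differences. No member was called across siRNAs without any one array or siRNA. Without a swapped array, that siRNA's value across siRNAs is its Cy5 mean alone. MKI67, CDC25C and CENPE were the dimmest members, and low signal over background limits the precision of a spot.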
